A study of Mus musculus with 8 samples.

Results

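The DNA replication and mitosis genes are 40 genes that dividing cells use, 18 for S phase and 22 for mitosis, out of the 22897 features (genes, and probes with no gene name) tested on these arrays. They were listed by name, with earlier results of these data known, and all 40 were found, through 60 probes. Of these genes, 3 were found under an older name, Cdc2a for Cdk1, Cdc45l for Cdc45 and 4833427B12Rik for Gins2. The filter on dim probes kept 39, all 18 S phase genes and 21 mitosis genes. Bub1, a checkpoint kinase of the spindle, was left out because it was well above background on 3 arrays but never on both arrays of a group.

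The study compared mouse haematopoietic stem cells (HSC) that were wild type (WT) or lacked E47 (KO), each recovered as donor cells by flow sorting from a primary or a secondary transplant recipient. E47 is a transcription factor made from Tcf3, a gene also called E2A. There were 4 groups with 2 one-colour Agilent arrays each, 8 arrays in all: WT in primary recipients, KO in primary recipients, WT in secondary recipients and KO in secondary recipients. All 4 groups are donor cells taken from a transplanted mouse, so none is an untransplanted stem cell. The sources used here do not give strains, ages, the markers of the sort, the number of cells or how many mice were pooled. The labels do not say whether the arrays of a group came from separate mice, so each p-value rests on the scatter of these 8 arrays alone, and that scatter may be technical.

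A cell prepares its origins in G1, when ORC, Cdc6 and Cdt1 load the ring of Mcm proteins that will unwind the DNA. In S phase Cdc45 and the GINS proteins turn that ring into an active helicase, and polymerases, the Pcna clamp and ribonucleotide reductase supply the copying. Mitosis then needs cyclin B with Cdk1, the Aurora and Polo kinases, the kinesins and the kinetochore proteins. Many of these genes are switched on by E2F at the G1 to S border or by other factors in G2, and Mki67 protein is the usual stain for cycling cells. HSC in adult marrow are mostly out of the cycle, and transplantation is known to drive them into it.

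The arrays differed in brightness. Between 72.2% and 90.7% of the spots were well above background on 6 arrays, but 41.9% were on WT primary replicate 2 and 35.4% on KO primary replicate 2. On those 2 dim arrays a probe at background reads near the middle of the array: features not well above background had a median level of -2.93 and -2.19 there, against -5.39 to -6.24 on the other arrays. Levels here are log2 signal, scaled to the array's 75th percentile and then set relative to the median of the tested features on the same array, so 0 is the middle of the array. A level is compared between arrays for 1 probe, never between probes. All 4 WT arrays lay on slide 1, KO primary on slide 2 and KO secondary on slide 3, so slide cannot be told apart from genotype, nor from recipient among KO arrays, while the WT arrays of both recipients shared 1 slide. For Tcf3, 1 probe was well above background on 8 arrays and the other on 7. No source used here places these probes relative to the deletion, and they say nothing about the labels.

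Granulocyte and monocyte markers split the arrays by recipient, while HSC markers overlapped. The 13 granulocyte and monocyte markers tested, such as S100a8, S100a9 and Mpo, had a median level of 3.76 to 11.04 on the primary arrays and -1.67 to -1.25 on the secondary arrays, and their summed level ran from 480 to 32300 and from 20.6 to 74.7. At least 10 of the 13 were well above background on every array. S100a8 was at 6.10, 12.17, 6.0 and 12.67 in primary recipients and was well above background on 1 of 4 arrays in secondary recipients. The 12 HSC markers tested, such as Kit and Ly6a, had a median of -0.91 to 1.39 in primary and 1.15 to 3.71 in secondary recipients. Their summed level ran from 24.5 to 4270 and from 98.1 to 201, so it overlapped too. On each bright array 11 or 12 of the 12 were well above background. The part of these markers in the results on recipients was not tested. In bulk RNA, fewer cells of a type and less RNA per cell cannot be told apart.

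More of the genes were detected on the secondary arrays, and so were more of all features. On the primary arrays 16, 8, 16 and 8 of the 18 S phase genes were well above background, and on the secondary arrays 18, 17, 18 and 17. For the 21 mitosis genes the counts were 20, 12, 18 and 10, then 21, 19, 21 and 19. Of all features, 90.4%, 58.7%, 89.2% and 50.6% were well above background on the primary arrays. On the secondary arrays 95.4%, 93.8%, 99.2% and 93.7% were, so the counts follow the arrays as a whole. The low counts of 8, 10 and 12 belong to the 2 dim arrays. As a result, 9 of the 18 S phase genes and 9 of the 21 mitosis genes passed the filter only through a secondary group, against 8097 of all 22897 features, and Mcm2, Mcm3, Cdc6, Cdc45, Rrm1, Mki67 and Cdk1 are among them. A gene that passed in that way had to be dim on an array of each primary group, so counts and medians over the genes that passed are a description and not support for a difference.

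The middle of the S phase genes stood higher on the secondary than on the primary arrays, while the middle of the mitosis genes overlapped. The median S phase level was -0.86 and -1.84 on the WT primary arrays and -0.31 and -0.25 on the KO primary arrays. It was 1.64 and 1.15 on the WT secondary arrays and 1.16 and 0.31 on the KO secondary arrays. Every secondary array was thus above every primary array, the 2 bright primary arrays included. Because 9 of the 18 genes passed the filter only through a secondary group, this separation is a description. It is not shown for the 9 genes that passed in a primary group. The median mitosis level was 0.51 and 0.20 for WT primary, 0.87 and -0.27 for KO primary, 0.63 and -0.28 for WT secondary and 1.44 and 0.65 for KO secondary, so recipients overlapped there. The pooled SD between the arrays of a group was 0.491 for the S phase median and 0.595 for the mitosis median.

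**Figure D1:**
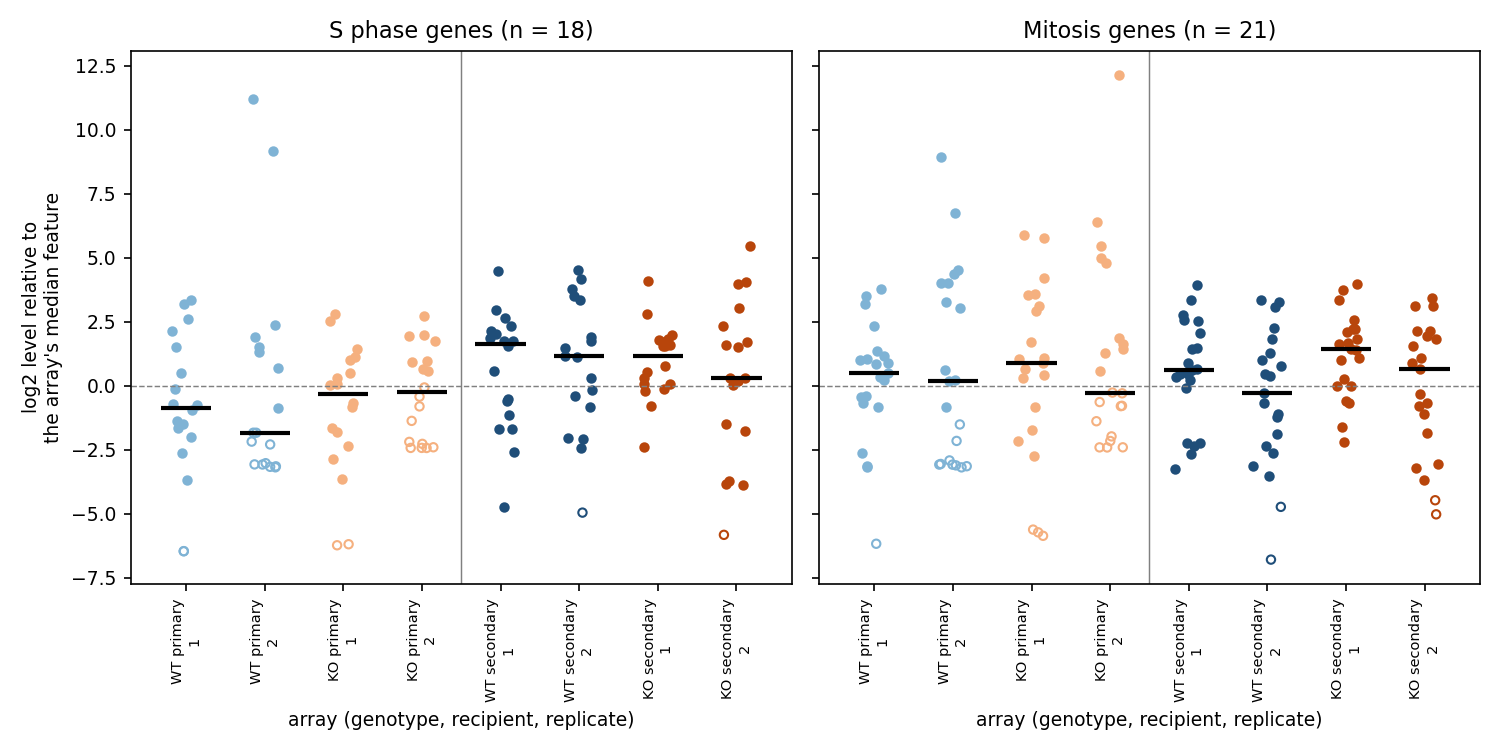
Each point is 1 gene on 1 array; the vertical axis is its log2 level relative to the array's median feature, the black line is the list's median, and open points are not well above background. The S phase median lies between -1.84 and -0.25 on the 4 primary arrays and between 0.31 and 1.64 on the 4 secondary arrays, while the mitosis medians of the 2 recipients overlap. Of the 18 S phase genes, 9 passed the filter only through a secondary group, so the medians are a description.

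**Figure D2:**
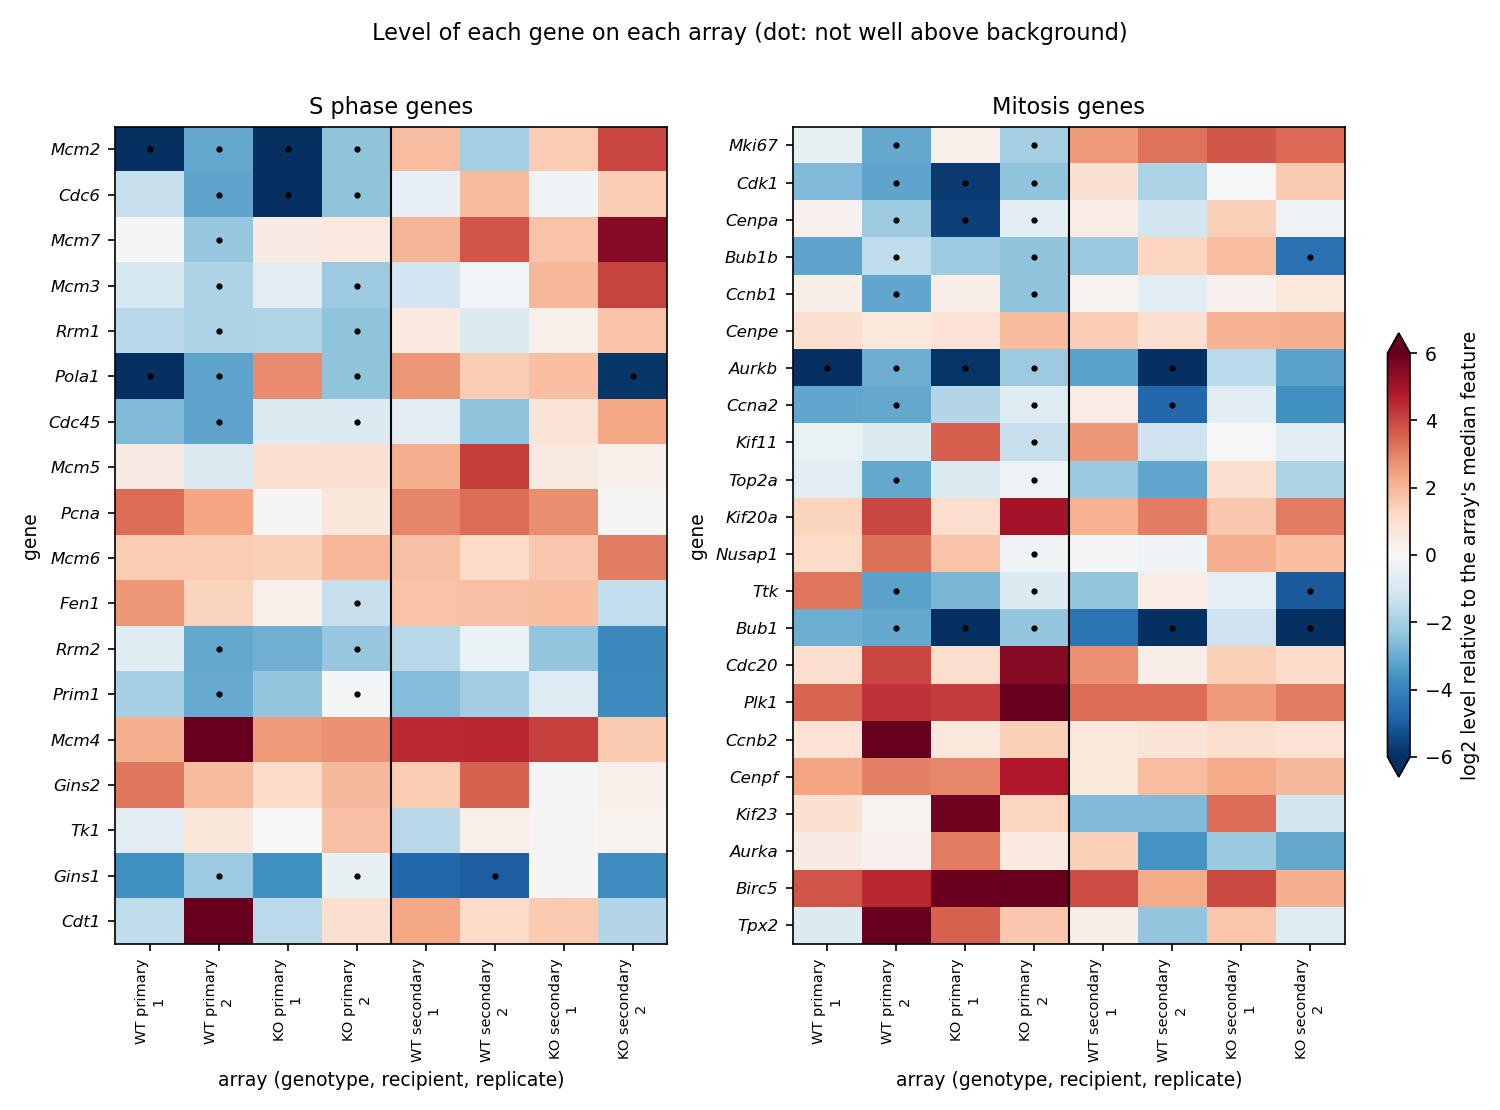
Colour gives the log2 level of each of the 40 genes (rows) relative to the median feature of each of the 8 arrays (columns), read along a row and not between rows; a dot marks a probe not well above background, and rows are ordered by secondary minus primary. Mcm2 is well above background on none of the 4 primary arrays and on all 4 secondary arrays, and Birc5 and Tpx2 are at the foot of the mitosis panel.

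No gene passed an adjusted p of 0.05 in any of the 7 comparisons: limma with Benjamini-Hochberg adjustment over all features called 0.0% of them, in each comparison, and none of the 39 genes. The text therefore gives levels, changes with their standard error (SE) and adjusted p-values, and counts at an unadjusted p under 0.05 beside the share of all features at that p. Changes are given relative to the median change of all features, which was -0.73 for secondary against primary recipients with both genotypes together, -0.99 in WT and -0.53 in KO. For KO against WT the median change was 0.29 in primary recipients, 0.45 in secondary recipients and 0.33 together. The p-values and the SE belong to the change before this median is taken off.

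Secondary against primary recipients, both genotypes together, put 11 of the 39 genes (28.2%) at an unadjusted p under 0.05, against 19.2% of all features. By direction, 8 genes were on the higher side, where 5.52% of all features were, and 3 on the lower side, where 13.7% were. Of the 8, only Mcm7 passed the filter in a primary group, so the higher count is a description and not support for a difference. With each array centred on its median, the counts were 8 (5.84% of all features) and 1 (11.2%), Aurka, with Birc5 and Cenpf at unadjusted p of 0.0514 and 0.0554 (limma). All 6 S phase genes among them were higher (Mcm2, Mcm3, Mcm7, Cdc6, Cdc45 and Rrm1), while the mitosis genes were Mki67 and Cdk1, higher, and Birc5, Aurka and Cenpf, lower. The S phase median change was 1.13, with 14 of 18 genes above the median feature, and 0.40 with 12 of 18 above 0 before the median was taken off. The mitosis median was 0.28 with 12 of 21 above the median feature, but -0.45 with 7 of 21 above 0 before it was taken off, so its sign rests on the scaling. Among the genes that passed the filter in a primary group, the median change was 0.90 for 9 S phase genes, 6 of them above the median feature, and -0.87 for 12 mitosis genes, 4 of them above it.

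Mcm2, a subunit of the replicative helicase, had the lowest p of the S phase genes. It was well above background on none of the 4 primary arrays, with levels of -6.46 and -3.07 in WT and -6.19 and -2.43 in KO, and on all 4 secondary arrays, at 1.85 and -2.05 in WT and 1.54 and 3.99 in KO. The readings of the recipients did not overlap. WT secondary replicate 2, at -2.05, was close to -2.19, the median of features not well above background on KO primary replicate 2. A lack of overlap is therefore not shown for the dim arrays. Since the primary level is only a bound, Mcm2 was at least 11.9-fold higher in secondary recipients by the mean of the arrays. The fitted change of 6.54 (log2, SE 1.35, adjusted p = 0.146) is taken from readings at background and is no measure of its size.

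Among the other helicase subunits, Mcm7 stood at -0.13, -2.29, 0.49 and 0.58 in primary recipients and at 2.02, 3.79, 1.72 and 5.45 in secondary recipients, without overlap (change 4.25, SE 0.99, adjusted p = 0.217). Mcm3 stood at -0.96, -1.84, -0.66 and -2.19 and then at -1.14, -0.17, 1.98 and 4.07, where the WT secondary arrays overlapped the primary ones (change 3.27, SE 1.0, adjusted p = 0.249). The remaining subunits had smaller changes, 2.05 for Mcm5 (SE 0.99), 0.93 for Mcm6 (SE 0.65) and 0.20 for Mcm4 (SE 1.43). All 6 subunits thus lay above the median feature, but Mcm4 by less than its SE, and before the median was taken off Mcm4 was on the other side of 0, at -0.53. Mcm5 was then at 1.32 and Mcm6 at 0.20.

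Cdc6, which loads the helicase, was on the primary arrays at -1.40 and -3.19 (WT) and -6.23 and -2.43 (KO), only the first of them well above background. On the secondary arrays it was at -0.51 and 1.92 in WT and -0.20 and 1.5 in KO, above every primary reading. The fitted change was 4.65 (SE 1.12, adjusted p = 0.222). With 3 of the 4 primary readings not well above background, its size and the lack of overlap are uncertain. Its partner Cdt1 showed no such pattern, at -1.5, 11.21, -1.64 and 0.95 and then 2.34, 1.17, 1.55 and -1.77, with the dim WT primary array far above all others (change -0.77, SE 2.44). Cdc45, which joins the helicase when an origin fires, stood at -2.63, -3.15, -0.82 and -0.81 in primary and -0.61, -2.42, 0.77 and 2.34 in secondary recipients. The Cdc45 arrays overlapped between recipients (change 2.54, SE 0.73, adjusted p = 0.25), and Cdc45 was not well above background on either dim array. Gins1 and Gins2, its partners in the active helicase, had changes of -0.18 and -0.06 (SE 1.17 and 0.78). Before the median was taken off these were -0.91 and -0.79.

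Of the genes for nucleotides and synthesis, Rrm1, the large subunit of ribonucleotide reductase, stood at -1.65, -1.83, -1.79 and -2.43 and then at 0.59, -0.82, 0.30 and 1.70, without overlap of the readings (change 3.04, SE 0.72, adjusted p = 0.242). It was not well above background on either dim array, so the lack of overlap is uncertain. The small subunit of the reductase, Rrm2, whose level varies with the cycle, had a change of 0.82 (SE 0.87). Pcna, the sliding clamp, was at 3.33, 2.37, 0.08 and 0.66 and then at 2.95, 3.33, 2.79 and 0.05, overlapping (change 1.33, SE 0.84). Tk1, a salvage kinase, Prim1, a primase, and Fen1, the flap nuclease, had changes between -0.06 and 0.90. Before the median was taken off these lay between -0.79 and 0.17. Pola1, the catalytic subunit of polymerase alpha, ranged from -6.46 to 2.82 in primary and from -5.82 to 2.64 in secondary recipients.

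**Figure D3:**
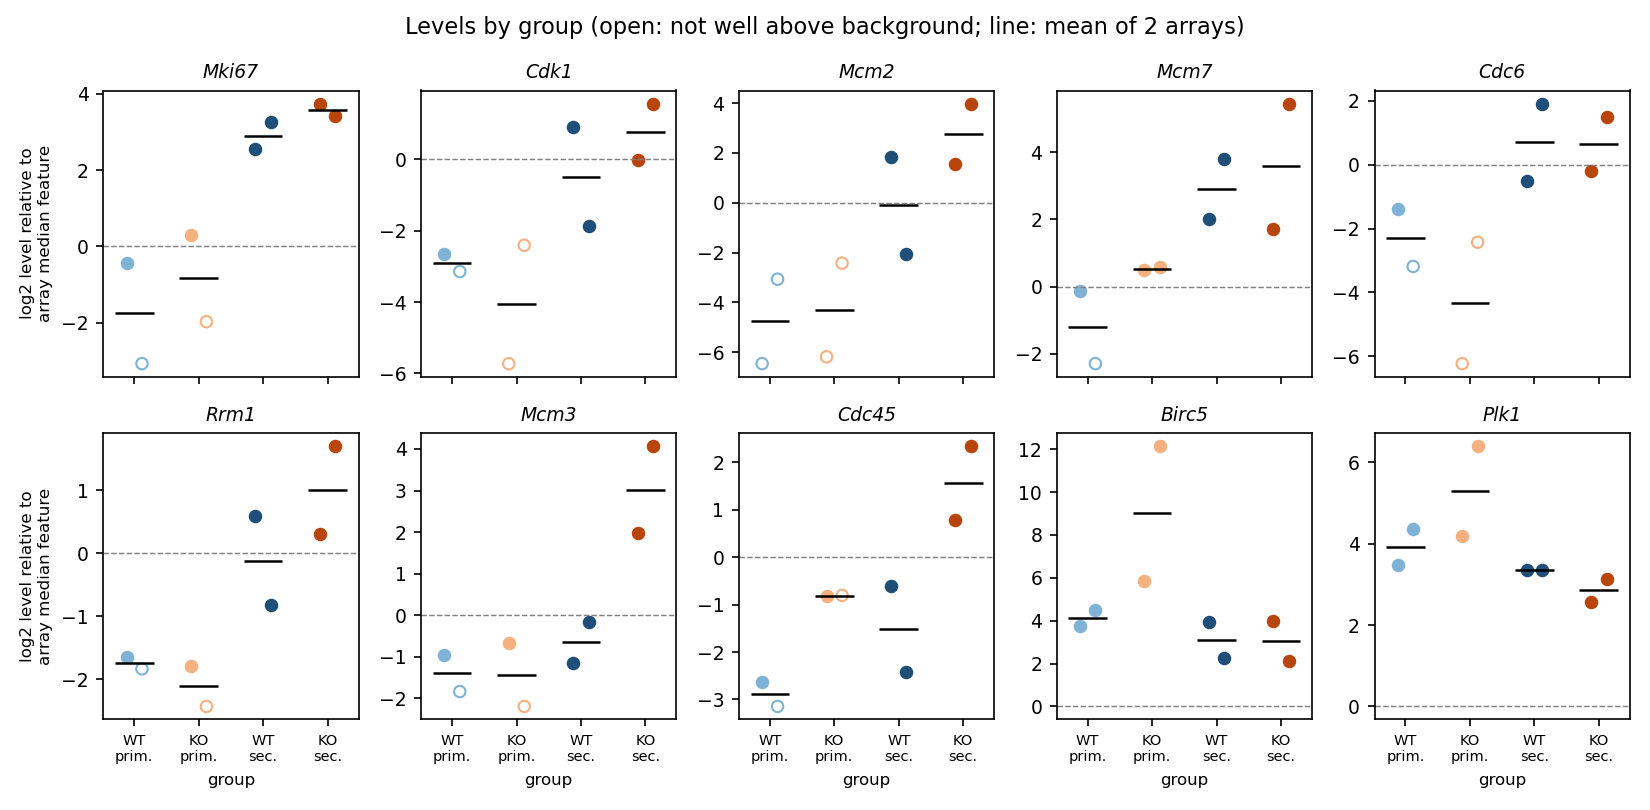
Each panel is 1 gene; points are the 2 arrays of a group, open where not well above background, and the line is their mean, as log2 level relative to the array's median feature. Mki67, Cdk1, Mcm2, Mcm7, Cdc6 and Rrm1 have every secondary point above every primary point, though open points are only bounds. Mcm3 and Cdc45 do not, and Plk1 has every secondary point below every primary point.

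Mki67, the marker of cycling cells, had the lowest p of the 39 genes. On the primary arrays it stood at -0.43 and -3.08 (WT) and at 0.29 and -1.98 (KO), neither dim array being well above background, and 2.54, 3.25, 3.75 and 3.41 on the secondary arrays. The change was 5.21 (SE 0.88, adjusted p = 0.098), with no overlap by this probe, and it was 5.54 in WT (SE 1.33) and 4.93 in KO (SE 1.33). Its size is uncertain, because the readings on the dim arrays are only bounds. The second Mki67 probe overlapped, at 2.30 on WT primary replicate 1 against 2.17 on WT secondary replicate 1 and -0.38 on KO secondary replicate 2. Cdk1, the kinase that starts mitosis, stood at -2.65, -3.14, -5.72 and -2.41 and then at 0.91, -1.88, -0.02 and 1.56, also without overlap of the readings (change 4.29, SE 1.07, adjusted p = 0.236). It was well above background on 1 primary array and all 4 secondary arrays, so the size of this change and the lack of overlap are uncertain too.

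The cyclins overlapped between recipients. Ccnb1, the main partner of Cdk1, was at 0.33, -3.11, 0.40 and -2.41 in primary and at 0.23, -0.69, 0.25 and 0.66 in secondary recipients. The bright primary arrays thus lay within the secondary range (change 1.97, SE 1.0, or 1.24 before the median was taken off). Ccnb2 and Ccna2 had changes of -0.91 and 0.69 (SE 1.27 and 1.26), or -1.64 and -0.04 before the median was taken off. Top2a, which untangles chromosomes, had a change of 0.33 (SE 0.95).

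On the lower side, Birc5 (survivin, a chromosome passenger protein) stood at 3.76, 4.51, 5.87 and 12.14 in primary and at 3.93, 2.24, 3.97 and 2.13 in secondary recipients, with WT overlapping (change -2.83, SE 1.56, adjusted p = 0.26). Without KO primary replicate 2, a dim array, the Birc5 change was -1.13, and with slide as a block it was -0.16. The kinase Aurka was at 0.51, 0.24, 3.10 and 0.57 and then at 1.42, -3.53, -2.21 and -3.07, with WT secondary replicate 1 within the primary range (change -2.29, SE 1.25, adjusted p = 0.252). Cenpf, a kinetochore protein, was at 2.35, 3.05, 2.90 and 4.81 and then at 0.63, 1.83, 2.22 and 1.96 by 1 probe, without overlap (change -0.95, SE 0.72, adjusted p = 0.257). With the mean over its probes the change was 0.38, the other way.

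Plk1, the Polo kinase, was also lower on every secondary array, at 3.35, 3.36, 2.58 and 3.13 against 3.49, 4.36, 4.19 and 6.39 (change -0.84, SE 0.77). The motor Kif23 and the spindle factor Tpx2 had changes of -2.14 (SE 1.29) and -2.94 (SE 1.96), and Tpx2 was at 8.92 on the dim WT primary array. Some kinetochore and checkpoint genes lay on the higher side, with 2.82 for Cenpa (SE 1.33), 2.09 for Bub1b (SE 1.46) and 1.25 for Cenpe (SE 0.63), though none reached an unadjusted p of 0.05. Before the median was taken off these were 2.09, 1.36 and 0.52, with unadjusted p of 0.153, 0.376 and 0.437 (limma). Cenpa was well above background on 1 primary array. Its second probe, well above background on 2 arrays, differed by -3.46 in level, the other way. The other Cenpe probes differed by 1.42 and -1.61. Aurkb was not well above background on any of the 4 primary arrays and was on 3 of the 4 secondary arrays, where its levels ran from -6.79 to -1.62. Kif11, Kif20a, Nusap1, Ttk and Cdc20 had changes between -0.80 and 0.60, or between -1.53 and -0.13 before the median was taken off.

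In all, 6 of the 39 genes had every secondary reading above every primary reading (Mcm2, Mcm7, Cdc6, Rrm1, Mki67 and Cdk1), where 3.26% of all features did. For Mcm2, Cdc6, Rrm1 and Cdk1 this is uncertain, because their readings on the dim arrays are only bounds. The readings are of 1 probe a gene, and the second probes of Mki67, Rrm1, Cdc6 and Cdk1 overlapped between recipients. Of the 6, only Mcm7 passed the filter in a primary group, so the count is a description and not support for a difference. Plk1 and Cenpf were the 2 with every secondary array below, where 10.9% of all features were. Without the 2 dim arrays, the S phase median change was 1.56 with 16 of 18 genes above the median feature, and the mitosis median was 0.12 with 11 of 21. These are the same genes, and 9 of the 18 S phase genes passed the filter only through a secondary group. The medians without the dim arrays are therefore a description too.

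Within WT, on 1 slide, 5 genes were at an unadjusted p under 0.05, against 12% of all features, and all 5 were on the higher side, where 5.45% of all features were. They were Mki67 (5.54, adjusted p = 0.375), Mcm5 (4.21, SE 1.13), Mcm7 (5.0, SE 1.47), Mcm2 (at least 5.08-fold) and Pola1 (at least 22.5-fold), the last 4 with an adjusted p of 0.412. Among them only Mcm5 and Mcm7 passed the filter in a primary group, so the count is a description. Pola1 was not well above background on either WT primary array and stood at 2.64 and 1.46 on the WT secondary arrays. The S phase median change was 1.40, with 15 of 18 genes above the median feature, and the mitosis median was 0.32, with 12 of 21. Before the median was taken off, they were 0.41 with 11 of 18 above 0 and -0.67 with 8 of 21 above 0. The sign of the mitosis median thus rests on the scaling, and both medians are a description.

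Within KO, 8 genes were at that p, against 6.04% of all features (3.28% on the higher side and 2.76% on the lower), with adjusted p-values of 0.699 or 0.715. On the higher side were Mcm2 (at least 28.1-fold), Mcm3 (4.96, SE 1.14), Cdc6 (at least 6.48-fold), Rrm1 (3.62, SE 1.02), Mki67 (4.93, SE 1.33) and Cdk1 (at least 7.06-fold). None of these passed the filter in a primary group, so the count on that side is a description. Birc5 (-5.45, SE 1.99) and Aurka (-3.97, SE 1.72) were on the lower side. The S phase median change was 0.92, with 12 of 18 genes above the median feature, but it was -0.053 without KO secondary replicate 1 and 2.18 without KO secondary replicate 2. The mitosis median was -0.15, and lay between -1.14 and 1.17 when single arrays were left out.

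Between the 2 genotypes, whose arrays are separate here, 9 of the 18 S phase genes were above the median feature in both, none was below in both, and 9 had opposite signs. Of the mitosis genes 8 were above in both, 7 below in both and 6 opposite. The difference between the genotypes' changes was tested as an interaction, in which 2 genes were at an unadjusted p under 0.05, against 3.74% of all features. As KO change minus WT change, the term was -4.06 for Mcm5 (SE 1.60) and 3.52 for Mcm3 (SE 1.61), both with an adjusted p of 1.0. The next were Nusap1 at 3.52 (SE 1.64) and Pola1, whose fitted term has no certain size because it was well above background on neither WT primary array and on 1 array of each KO group.

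**Figure D4:**
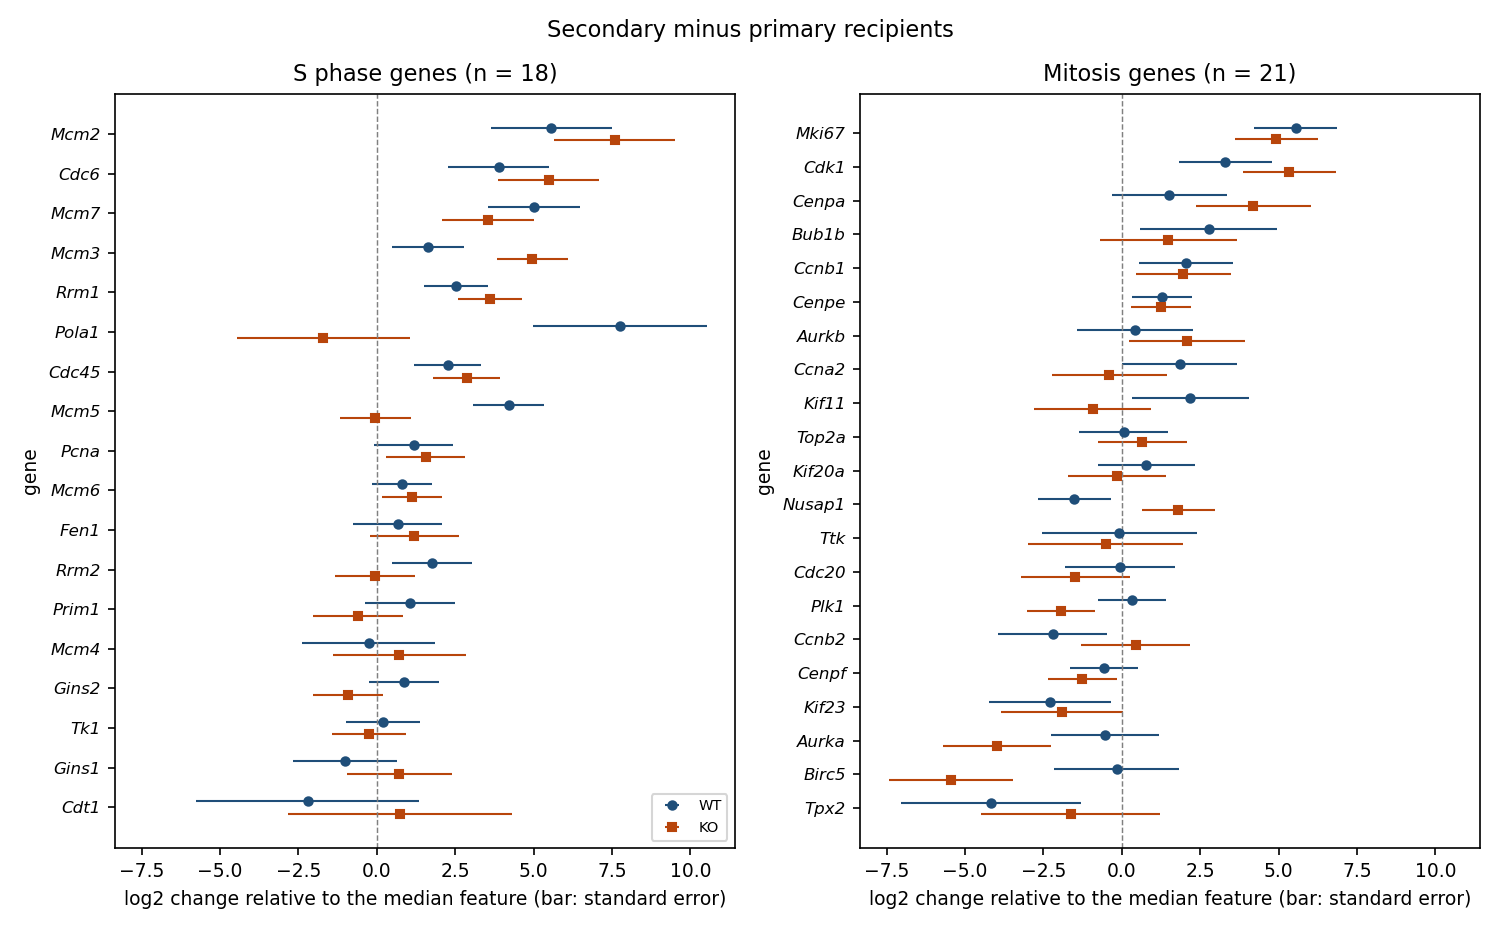
Points are the log2 change from primary to secondary recipients relative to the median feature, for WT (circles) and KO (squares), with bars of 1 SE; genes are ordered by the mean of both. Mcm2, Cdc6, Mcm7, Mki67 and Cdk1 lie to the right in both genotypes, Pola1 and Mcm5 lie to the right for WT and at or left of 0 for KO, and Birc5 and Aurka lie to the left for KO.

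For KO against WT, in primary recipients 1 of the 39 was at an unadjusted p under 0.05, against 3.96% of all features. Birc5 stood at 5.87 and 12.14 in KO and at 3.76 and 4.51 in WT, without overlap, although the highest value came from a dim array (change 4.69, SE 1.99, adjusted p = 0.995). Cdc45 was next among the S phase genes on the higher side, with a change of 1.90 (SE 1.07), and Pcna on the lower side, with -2.66 (SE 1.25). On the dim array of either genotype Cdc45 was not well above background. Without WT primary replicate 1, which leaves the dim array alone in its group, Cdt1 passed an adjusted p of 0.05, as did 542 of all features. The medians were -0.09 for S phase, with 9 of 18 above the median feature, and 0.37 for mitosis, with 14 of 21. Before the median of all features was taken off they were 0.20 and 0.65. With 2 arrays against 2, both KO arrays lay above both WT arrays for 8 of the 39 genes, as for 14.9% of all features, and below for 2 (Pcna and Fen1), as for 10.2%.

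In secondary recipients 2 genes were at that p, against 5.38% of all features. Mcm3 was at 1.98 and 4.07 in KO and at -1.14 and -0.17 in WT (change 3.42, SE 1.14, adjusted p = 0.82). Its second probe overlapped, at 1.51 and -0.56 in KO and at -0.64 and 0.40 in WT, so this difference rests on 1 probe. Cdc45 was at 0.77 and 2.34 in KO and at -0.61 and -2.42 in WT (change 2.81, SE 1.07, adjusted p = 0.879). Both KO arrays lay above both WT arrays for 12 genes, as for 25.2% of all features, and below for 6, as for 15.6%. Other helicase genes lay on the other side, Mcm5 with -3.00 (SE 1.13) and Gins2 with -2.70 (SE 1.13), so helicase genes lay on both sides of the median feature. The medians were -0.27 for S phase, with 8 of 18 above the median feature, and 0.42 for mitosis, with 12 of 21. Before the median of all features was taken off they were 0.18 and 0.87.

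With both recipients together, 3 genes were at an unadjusted p under 0.05, against 4.68% of all features, all with an adjusted p of 0.851. Cdc45 was higher in KO (change 2.39, SE 0.73), with both KO readings above both WT readings in each recipient. It was not well above background on the dim primary array of either genotype, so the separation in primary recipients is uncertain. Kif23, a motor of the cleavage furrow, was higher in KO (3.19, SE 1.29), at 5.78, 1.29, 3.33 and -1.11 against 0.90, 0.20, -2.65 and -2.63 in WT. Pcna was lower in KO (-2.28, SE 0.84), at 0.08, 0.66, 2.79 and 0.05 against 3.33, 2.37, 2.95 and 3.33. No gene of the 39 had all 4 KO arrays above or below all 4 WT arrays, where 0.97% and 0.751% of all features did. Mki67, which had the lowest p between recipients, had a KO against WT change of 0.62 (SE 0.88).

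**Figure D5:**
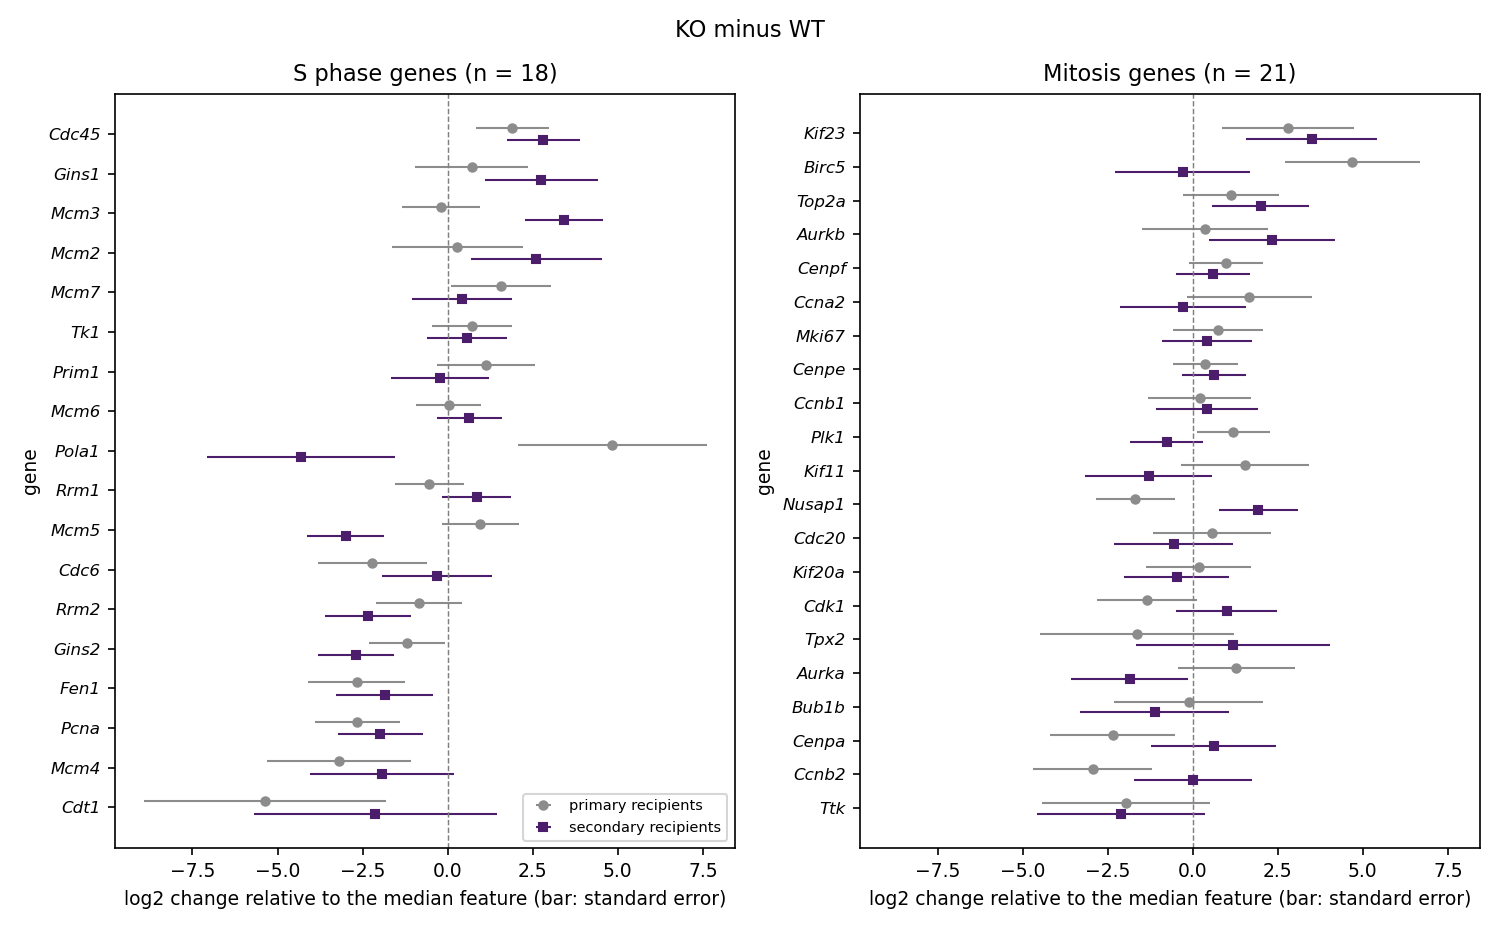
Points are the log2 change from WT to KO relative to the median feature, in primary (circles) and secondary recipients (squares), with bars of 1 SE; genes are ordered by the mean of both. Cdc45 and Kif23 lie to the right in both recipients, Pcna, Fen1 and Cdt1 to the left in both.

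Genes of the same processes outside the 40 are given for comparison. Of 42 other replication genes tested, 8 were at an unadjusted p under 0.05 for secondary against primary recipients, 6 higher and 2 lower, or 19.0% against 19.2% of all features (5.52% higher and 13.7% lower), and their median change was 1.30, with 30 of 42 above the median feature. Before the median was taken off it was 0.57, with 24 of 42 above 0. Uhrf1, which keeps DNA methylation through replication, was at 0.87, 0.68, 2.44 and 1.1 and then at 4.29, 4.06, 3.62 and 4.00, without overlap (change 3.39, SE 0.67, adjusted p = 0.181). Rfc1, of the clamp loader, had a change of 3.28 (SE 0.68, adjusted p = 0.203), also without overlap.

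Of 49 other mitosis genes tested, 8 were at that p (16.3%, against the same 19.2% of all features), 4 in each direction, with a median change of 0.33 and 28 of 49 above the median feature, or -0.40 and 20 of 49 above 0 before the median was taken off. The lowest p on the lower side belonged to Cdca3, with -1.40 (SE 0.71), and Prc1, with -1.66 (SE 0.83), both with an adjusted p of 0.249. For KO against WT with both recipients, the other replication genes had a median of -0.48 with none of 42 at that p, and the other mitosis genes a median of 0.22 with 1 of 49, against 4.68% of all features. That gene was Ncaph, a condensin subunit, with 3.28 (SE 1.18, adjusted p = 0.851). Every KO array was above every WT array for Ncaph, as for 0.97% of all features, at 0.30, -2.21, -0.06 and 4.19 against -2.48, -2.94, -2.43 and -3.76.

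The probes behind 4 of the named genes are shown because each reads 60 bases of one transcript and the results rest on what they capture. They are given as the scanner files list them, in lower case, with positions on mouse build mm8. The Mki67 probe lies on the minus strand within one stretch of the genome (chr7:135532672-135532731). The Cdk1 (chr10:68738032-68740441), Mcm3 (chr1:20790433-20790949) and Cdc45 (chr16:18706869-18708350) probes, all on the minus strand, span 2410, 517 and 1482 bases of genome, so each crosses an exon junction and reads spliced RNA. They are 4 of the 60 probes, of which 12 cross a junction.
Mki67: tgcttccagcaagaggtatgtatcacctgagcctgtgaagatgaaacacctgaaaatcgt
Cdk1: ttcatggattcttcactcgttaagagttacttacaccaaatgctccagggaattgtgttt
Mcm3: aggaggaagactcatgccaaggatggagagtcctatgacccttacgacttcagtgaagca
Cdc45: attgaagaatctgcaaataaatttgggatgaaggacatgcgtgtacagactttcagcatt

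Of the 40 genes, 16 had more than 1 probe, and the results above use the brightest. The probes of 7 genes had the same sign for secondary minus primary level, and those of 9 did not. In array-relative level, the second Mki67 probe differed by 2.09 where the brightest differed by 4.54, and its arrays overlapped between recipients. The second Rrm1 probe differed by 1.19 against 2.37, also with overlap, and the second Mcm3 probe by 4.53 against 2.60. The second Rrm1 and Mcm3 probes were well above background on no primary array, so 1.19 and 4.53 are no measure of size. For Cdk1 and Cdc6 the second probe gave -0.61 and -0.39 against 3.62 and 3.99, so these results rest on 1 probe each. Mcm2, Mcm7 and Cdc45 had a single probe.

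Promoters are shown for the 6 genes with every secondary reading above every primary reading, and for Birc5, which lay on the lower side but overlapped between recipients. They are the 250 bases before the RefSeq start (build GRCm38.p6), 5′ to 3′ on the gene's strand, with the listed motifs in capitals. The motifs, searched on both strands, were the E2F-type words TTTCCCGC, TTTGGCGC, TTTCGCGC and TTTGCCGC, the cell cycle homology words (CHR) TTTGAA and TTCGAA, the CCAAT box, and the E box words CAGCTG and CACCTG, of the kind that E2A proteins bind. The windows are Mcm2 at chr6:88898781-88899030 (minus strand), Mcm7 at chr5:138171884-138172133 (minus), Cdc6 at chr11:98907901-98908150 (plus), Rrm1 at chr7:102441445-102441694 (plus), Mki67 at chr7:135716380-135716629 (minus), Cdk1 at chr10:69352913-69353162 (minus) and Birc5 at chr11:117848987-117849236 (plus). Mcm7 has 2 listed starts, and the window with more matches is printed.
Mcm2: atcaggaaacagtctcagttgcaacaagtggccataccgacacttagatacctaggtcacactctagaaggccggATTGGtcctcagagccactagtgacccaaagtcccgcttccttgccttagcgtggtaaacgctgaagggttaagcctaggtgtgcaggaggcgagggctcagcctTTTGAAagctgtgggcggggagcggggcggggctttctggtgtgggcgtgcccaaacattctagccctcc
Mcm7: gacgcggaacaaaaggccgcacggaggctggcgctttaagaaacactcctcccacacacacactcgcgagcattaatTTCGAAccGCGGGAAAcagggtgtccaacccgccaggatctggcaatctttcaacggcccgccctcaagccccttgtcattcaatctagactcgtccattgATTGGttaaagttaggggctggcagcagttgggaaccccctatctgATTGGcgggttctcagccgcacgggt
Cdc6: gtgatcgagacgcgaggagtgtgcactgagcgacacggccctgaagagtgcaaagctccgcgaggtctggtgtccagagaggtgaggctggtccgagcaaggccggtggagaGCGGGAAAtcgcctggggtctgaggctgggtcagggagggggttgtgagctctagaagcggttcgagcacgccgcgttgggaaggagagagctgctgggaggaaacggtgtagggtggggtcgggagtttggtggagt
Rrm1: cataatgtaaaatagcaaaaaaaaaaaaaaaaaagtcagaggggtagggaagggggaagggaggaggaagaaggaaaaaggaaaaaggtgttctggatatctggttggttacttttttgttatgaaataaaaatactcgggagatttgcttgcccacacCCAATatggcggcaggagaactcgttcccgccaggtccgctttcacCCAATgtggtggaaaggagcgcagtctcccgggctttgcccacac
Mki67: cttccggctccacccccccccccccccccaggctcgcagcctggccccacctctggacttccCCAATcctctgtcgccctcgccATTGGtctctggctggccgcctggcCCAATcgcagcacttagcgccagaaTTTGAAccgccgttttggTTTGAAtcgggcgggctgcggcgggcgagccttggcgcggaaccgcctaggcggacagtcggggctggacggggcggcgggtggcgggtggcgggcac
Cdk1: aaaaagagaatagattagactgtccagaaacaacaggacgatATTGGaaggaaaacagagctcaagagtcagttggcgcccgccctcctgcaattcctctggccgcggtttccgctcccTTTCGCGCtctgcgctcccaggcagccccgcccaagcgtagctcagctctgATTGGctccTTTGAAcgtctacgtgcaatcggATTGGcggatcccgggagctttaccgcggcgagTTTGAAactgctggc
Birc5: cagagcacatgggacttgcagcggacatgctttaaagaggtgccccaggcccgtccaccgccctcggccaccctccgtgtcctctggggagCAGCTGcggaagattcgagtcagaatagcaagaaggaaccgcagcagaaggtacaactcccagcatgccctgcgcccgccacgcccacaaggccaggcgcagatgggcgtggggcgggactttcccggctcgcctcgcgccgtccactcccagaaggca

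Cdk1 held 3 CCAAT boxes, 2 CHR words and 1 E2F-type word, Mki67 held 3 CCAAT boxes and 2 CHR words, and Mcm7 held 2 CCAAT boxes, 1 CHR word and 1 E2F-type word. Mcm2 held 1 CCAAT box and 1 CHR word, Rrm1 only 2 CCAAT boxes, Cdc6 only 1 E2F-type word, and Birc5 only 1 E box word. Plk1 and Cenpf, which had every secondary array below every primary array and are not printed, held only 1 and 2 CCAAT boxes. Promoters were listed for 33 of the 40 genes. A CCAAT box was in 27 of them (81.8%), against 37.5% of all 27025 gene symbols with a listed promoter, and an E2F-type word in 6 (18.2%), against 2.16%. By list, the E2F-type words were in 5 of 15 S phase promoters (33.3%) and 1 of 18 mitosis promoters (5.56%), and the CHR words in 4 of 15 (26.7%) and 7 of 18 (38.9%), against 19.6% of all symbols. The E box words were in 4 of the 33 (12.1%), in Birc5, Cenpe, Prim1 and Ttk, against 30.6% of all symbols. A match describes the letters in the window and shows no binding.

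Over the 8 arrays, the mean correlation between pairs of S phase genes was 0.033, between pairs of mitosis genes 0.048 and across the lists -0.005, against 0.055 for all features. Without the dim arrays these were 0.088, 0.075, -0.003 and 0.027. All pairs share the same 8 arrays and their brightness, and the values are a description. The median difference between the arrays of a group was 1.17 to 2.26 for S phase genes and 1.49 to 2.27 for mitosis genes, as log2 levels, against 0.82 to 1.71 for all features.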

How the data were processed

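RNA of flow-sorted donor HSC was amplified by PCR and labelled with Cy3, per the labels' protocols, and 8 one-colour arrays of Agilent design 014868 were read with Agilent's Feature Extraction, version 10.5.1.1 in the file headers. PCR amplification of little RNA can add scatter between arrays. The deposited scanner intensity used was the processed signal, background-subtracted per the file headers. The deposited series table holds a ratio per probe, each array's processed signal divided by a constant that sets its median to 1.0, and served as an alternative.

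From these, log2 intensity minus the array's 75th percentile was computed, without outlier spots. Per gene the probe with the highest mean over all arrays was kept, and features needed both arrays of 1 group well above background. Probes were named through RefSeq accessions, or by the symbol or alias in the files. Tests were two-sided, by limma 3.58.1 in R 4.3.3, over all 4 groups (4 residual degrees of freedom) or with additive genotype and recipient (5), with Benjamini-Hochberg adjustment over 22897 features; the code was tested on simulated data. The precision is limited by 2 arrays a group. "At least" folds set the bright group's mean against the lowest signal well above background on each array of the dim group.

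Members and lists were chosen with earlier results of these data known. Genes named are those at an unadjusted p under 0.05, the 3 of lowest p in each direction per comparison and list, and 10 named for their roles; of the other genes, the 2 of lowest p in each direction. Promoters come from RefSeq on GRCm38.p6.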

Additional observations from a re-analysis of the deposited data

How the results depend on the processing

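Alternatives were another background correction (normexp, offset 50), quantile or median scaling, the mean of a gene's probes, no filter or a filter on all 8 arrays, the deposited table, the slide or the replicate number as a block, and leaving out arrays. Of 533 alternatives for 32 member results, 532 kept their direction and stayed short of the adjusted threshold, and 1 reversed, Cenpf for secondary against primary recipients with the mean of probes (0.38). The count of members called stayed at 0 except for KO against WT in primary recipients without WT primary replicate 1, where it was 1 (Cdt1). All features called for that comparison ranged from 0 to 542 with single arrays left out, 542 without WT primary replicate 1. For secondary against primary recipients together they were 1 with normexp, 206 with quantile scaling, 30 with the mean of probes and 76 without both dim arrays, with no member among them. The S phase median moved in KO against WT to -0.58 (primary, quantile), and with the filter on all 8 arrays to -1.17 (primary), -2.005 (secondary) and -1.94 (both). The mitosis median moved to -1.0 (filter on all 8 arrays) and 0.445 (no dim arrays) for recipients in KO, to -0.38 for both genotypes (filter on all 8 arrays), and to 0.635 for the interaction (quantile). With single arrays left out, the S phase median ranged from -1.05 to 0.034 for KO against WT in secondary recipients, from 1.23 to 1.94, -0.053 to 2.18 and 0.95 to 1.72 for recipients in WT, KO and both, and from -0.18 to 0.60 for the interaction. The mitosis median ranged from -0.24 to 0.84 for KO against WT in secondary recipients, and from -0.042 to 1.12 and -1.14 to 1.17 for recipients in WT and KO. The causes were not tested, other than the fewer genes or arrays of a setting. Same-numbered arrays share only a number: replicate deviations correlated at 0.149 between the primary groups and from -0.026 to 0.013 otherwise, and with the replicate block 0 members were called and the S phase median for recipients stayed at 1.13. With slide as a block, recipients could be compared within WT alone (S phase median 1.40). Leaving out an array left 1 array in a group, assumed to vary like the others. Signal near background on the dim arrays limits what low genes can show.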
